A study of Mus musculus with 20 samples.

Results

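Transcript levels of 9 transcription factor genes of the myeloid and dendritic lineages were examined in cultured dendritic cells. They were the genes Spi1, Cebpa, Cebpb, Cebpd, Id2, Zbtb46, Maf, Bcl6 and Runx3, chosen by symbol from the 24421 genes of the count table. All 9 were among the 12465 genes with enough counts to be tested. The libraries came from murine bone marrow-derived dendritic cells (BMDCs), grown from flushed marrow for 8 days with the growth factor GM-CSF at 40 ng/mL. Cells received ovalbumin (Ova) or ovalbumin bound by IgG as immune complex (IC), which engages Fcγ receptors. They also received either iBET (I-BET151 at 3.3 µM) or DMSO as the vehicle control, given in the labels as 5%. No DMSO percentage is recorded for the cells with iBET. Whether the vehicle was matched is therefore not known, and a difference in DMSO could not be told apart from iBET. The stimulation lasted 4 h, and each of the 5 mice, A to E, gave 1 library of each of the 4 groups (20 libraries in all). The groups are called iBET IC, iBET Ova, DMSO IC and DMSO Ova.

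All groups shared the same culture, and no untreated cells were among the libraries. The methods name wild-type C57BL/6 mice and both sexes, without the sex or age of mice A to E. According to the methods iBET was added before IC, whereas the labels say that the treatments were simultaneous. A GM-CSF culture of marrow is a mixture of dendritic and macrophage-like cells, so in these bulk libraries fewer cells of a type and less RNA per cell cannot be told apart.

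BET proteins bind acetylated histones and help RNA polymerase to elongate, and iBET displaces them from chromatin. PU.1, the ETS factor made by Spi1, is needed for all myeloid cells and opens many of their enhancers, where C/EBP factors bind beside it. C/EBPα directs granulocyte and monocyte precursors, while C/EBPβ and C/EBPδ act in inflammatory gene induction. ID2 blocks E proteins and is required for conventional dendritic cells, and ZBTB46 is a BTB zinc finger factor of their lineage. BCL6, another BTB zinc finger factor, is a repressor, c-MAF is a large MAF factor of macrophages, and RUNX3 restrains dendritic cell maturation.

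The stretches before the transcription start of 3 members are shown because they stand for 3 of the patterns described below. Cebpb fell with iBET and rose with IC, Bcl6 fell with iBET, and Cebpa passed the threshold in none of the comparisons between the 4 groups. The RefSeq table of promoters (GRCm38.p6) held 6 of the 9 genes, Cebpb, Cebpa, Id2, Bcl6, Zbtb46 and Runx3, and Spi1, Cebpd and Maf were not among its entries. No printed stretch thus stands for the rise with iBET seen for Cebpd and, in IC, for Maf. The 250 bases before the start lie at chr2:167688665-167688914 on the plus strand for Cebpb, at chr16:23988853-23989102 on the minus strand for Bcl6 and at chr7:35119043-35119292 on the plus strand for Cebpa. Capitals mark TGACG, the core of cAMP response elements, and TATAAA, a core promoter element, each read on both strands. Also searched, and not marked, were the letters GAGGAA of PU.1 sites, the box known by its letters CCAAT and the C/EBP site TTGCNNAA. Among these 3 windows, GAGGAA was found 1 time, in the Bcl6 stretch, 191 bases before the start.
Cebpb: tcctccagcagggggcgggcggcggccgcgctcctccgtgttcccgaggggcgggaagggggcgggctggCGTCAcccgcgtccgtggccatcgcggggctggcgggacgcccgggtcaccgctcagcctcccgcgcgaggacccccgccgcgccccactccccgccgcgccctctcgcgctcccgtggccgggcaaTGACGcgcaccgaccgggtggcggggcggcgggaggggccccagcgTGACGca
Bcl6: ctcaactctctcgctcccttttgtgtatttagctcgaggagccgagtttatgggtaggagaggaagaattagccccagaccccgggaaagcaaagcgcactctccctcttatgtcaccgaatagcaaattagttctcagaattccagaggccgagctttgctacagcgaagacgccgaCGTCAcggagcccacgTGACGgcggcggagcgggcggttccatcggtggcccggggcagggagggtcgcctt
Cebpa: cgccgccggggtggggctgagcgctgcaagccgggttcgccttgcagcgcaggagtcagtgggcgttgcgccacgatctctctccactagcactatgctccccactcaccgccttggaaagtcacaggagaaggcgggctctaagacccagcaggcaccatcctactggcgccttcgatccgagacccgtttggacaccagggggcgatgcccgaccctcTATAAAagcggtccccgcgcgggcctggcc

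The Cebpb stretch held TGACG 3 times, with matches beginning 180, 53 and 7 bases before the start, and the printed Bcl6 stretch 2 times. The table holds a second start of Bcl6, inside the gene, and the stretch before it held none. The outermost start was printed. Of all 32851 promoters of the table, 17.8% held it at least once and 3.9% at least 2 times in the same 250 bases. The Cebpa stretch held a TATAAA 30 bases before the start, as 12.4% of all promoters did somewhere in the window. The window of Id2, which overlaps an annotated exon and is not printed, held CCAAT 3 times, and 10.1% of all promoters held it at least 2 times. GAGGAA was in 23.3% of all promoters and TTGCNNAA in 9.56%. These matches are letters only and no binding was measured.

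The libraries held 16447491 to 29245150 counts on genes (median 21764663), and levels are given as CPM, counts scaled to a common library total by TMM normalization. Tests across all genes used the quasi-likelihood test of edgeR with Benjamini-Hochberg adjustment and a threshold of an adjusted p of 0.05. Summed markers of conventional dendritic cells reached 4570 to 9620 CPM and those of neutrophils 428 to 914 CPM, both with overlapping ranges in the 4 groups. Those of macrophages were 1030 to 1270 CPM in DMSO IC and 737 to 989 CPM in iBET Ova, without overlap, and overlapped between the other groups. Mmp8 made up most of the neutrophil sum, and abundant genes such as Cd74 and Itgax much of the dendritic cell sum. Of its 9 tested markers, 3 fell with iBET in Ova, where 28.9% of all genes fell, and none rose. They were Ciita (log2 fold change -4.99), Flt3 (-3.66) and Clec9a (-1.18). With the mouse as block 6 were lower and 1 higher, where 68.7% of all genes passed. Flt3 (mean 3.03 CPM in DMSO Ova and 0.242 in iBET Ova) and Clec9a (5.56 and 2.45 CPM) were at low levels. Of 7 tested macrophage markers, 3 fell in Ova, beside the same 28.9% of all genes, and none rose (5 lower with the block). They were C1qa (-0.68), C1qb (-1.02) and C1qc (-0.82). In IC, 2 dendritic cell markers (Ciita and Flt3) and 1 macrophage marker (C1qb) fell, where 29% of all genes did. The other tested markers of both lists did not pass without the block. Of the members below, some fell with iBET, some rose and others did not pass. The part of the makeup of the cultures in those results was not tested. Of 8 markers of T and NK cells the sum was at most 1.55 CPM, and of 5 markers of B cells at most 0.772 CPM. The libraries of mice A and B lay apart from those of mice C, D and E on the second principal component (14.9% of the variance). The methods say that batch effects were removed with sva, and do not say what the batches were. The mouse was therefore also fitted as a replicate block, and several results are also given within both sets of mice.

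Per kilobase of exon, Cebpb and Id2 were the most abundant of the 9 in DMSO Ova, at 142 ± 26.9 and 103 ± 20.1 RPKM (SD, n = 5). The ranges of these neighbours overlapped. Spi1 followed at 71.5 ± 4.12 and Cebpa at 36.1 ± 5.92 RPKM, both clear of their neighbours. Runx3 (10.8 RPKM) and Cebpd (5.49 RPKM) overlapped in range, as did Zbtb46 (2.88 RPKM) and Bcl6 (1.98 RPKM). Maf was last, at 0.186 ± 0.0942 RPKM, and rested on 21 to 68 counts in any library.

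With iBET this order changed at Spi1 and Cebpd. In iBET Ova, Spi1 stood at 12.0 ± 1.52 RPKM, below Cebpa (31.2 RPKM) and next to Cebpd (14.4 RPKM), whose range overlapped its own. In iBET IC, Spi1 (11.8 RPKM) and Cebpd (11.7 RPKM) could not be ordered, and Spi1 was the higher in 3 of 5 libraries. The ratio of Cebpa to Spi1, both per length, had a median of 0.496 in DMSO Ova (range 0.422 to 0.631) and of 2.56 in iBET Ova (range 2.29 to 3.10). Cebpb per Spi1 had medians of 2.00 and 3.56 with DMSO in Ova and in IC and of 8.49 and 14.5 with iBET, and no range of a group overlapped that of another.

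**Figure D1:**
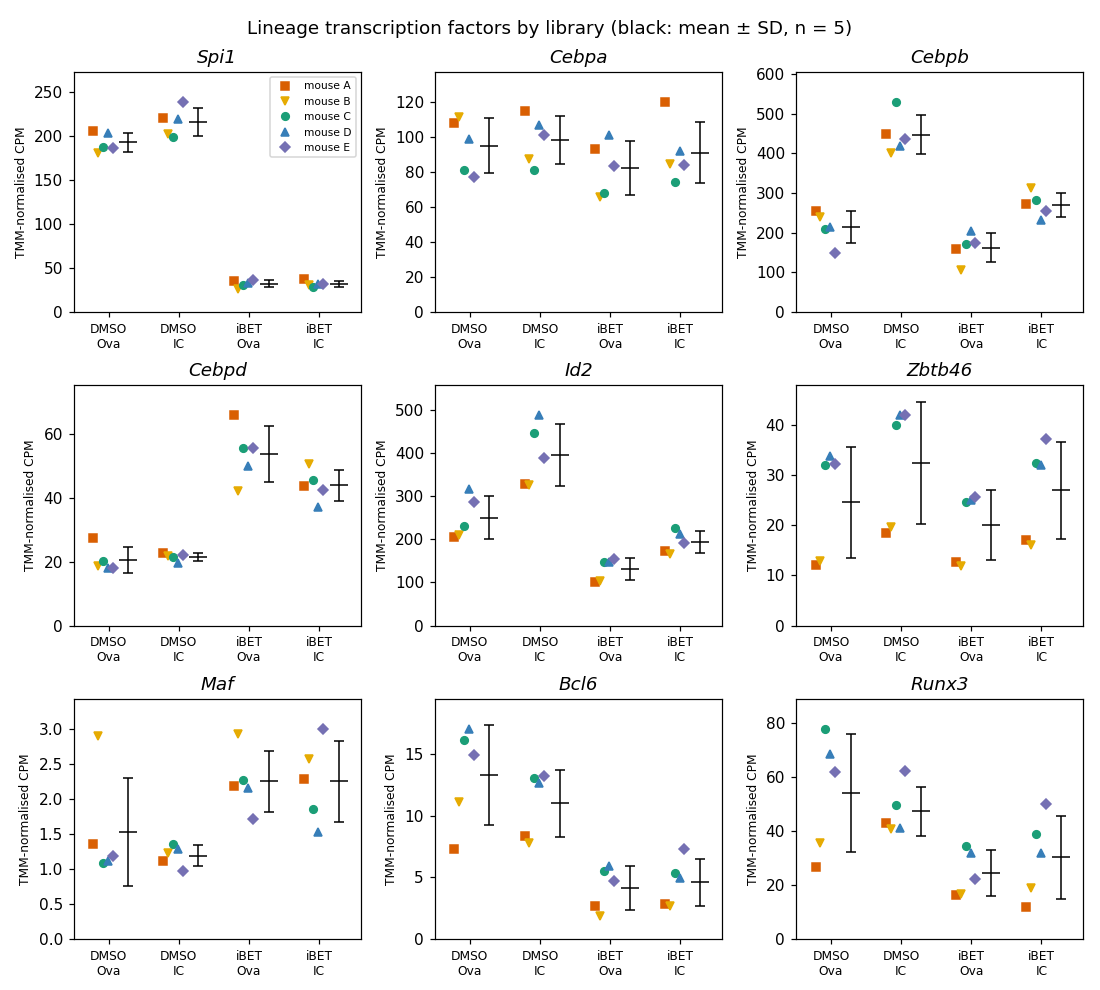
TMM-normalised CPM (linear axes from 0) of the 9 genes in each library, with a symbol for each mouse and the mean ± SD of 5 mice in black. Spi1 lies between 26.2 and 37.3 CPM in all 10 iBET libraries and between 181 and 239 CPM in all 10 DMSO libraries.

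iBET against DMSO asked how blocking BET proteins changed these factors. In Ova, 6 of 9 passed the threshold, 1 higher (Cebpd) and 5 lower (Spi1, Cebpb, Id2, Bcl6 and Runx3), where 56.6% of all genes tested passed (27.7% higher and 28.9% lower). In IC, 6 of 9 passed as well, 2 higher (Cebpd and Maf) and 4 lower (Spi1, Cebpb, Id2 and Bcl6), where 56.1% of all genes did (27.1% higher and 29% lower). These counts of 6 are near the share of all genes and are no property of the list. With the mouse as block 9 of 9 passed in Ova and 8 of 9 in IC, where 68.7% and 68% of all genes did. The 5 libraries of each treatment did not overlap for 4 members in Ova and 6 in IC, against 38% and 42.8% of all genes. The median absolute log2 fold change of the 9 was 0.94 in Ova and 0.92 in IC, and over all genes tested it was 0.36 in both.

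IC against Ova asked how Fcγ receptor engagement changed them. Cebpb and Id2 rose with DMSO and also with iBET, 2 of 9 in each case, where 20.3% of all genes passed with DMSO (9.59% higher and 10.7% lower) and 11.8% with iBET (5.19% higher and 6.63% lower). These were also the 2 members whose groups did not overlap, against 12.4% of all genes with DMSO and 10% with iBET. With the mouse as block the calls were 4 and 4 of 9, where 38.1% and 28.9% of all genes passed. The effect of iBET in IC minus that in Ova passed for none of the 9 in edgeR, with or without the block, and for none in DESeq2, where edgeR called 0.0401% of all genes (0.818% with the block). Only Cebpd had an unadjusted p under the threshold value, of 0.0444, as 543 of all genes tested did. The comparisons share groups, so the values of a gene in them are not independent of each other.

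**Figure D2:**
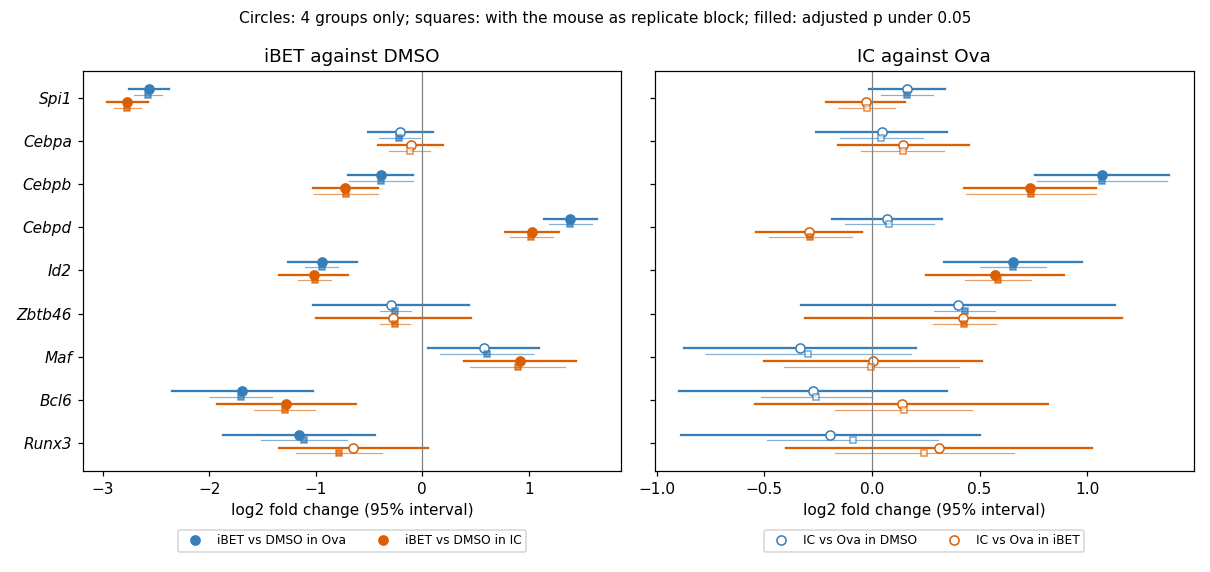
Log2 fold changes with 95% intervals of the 9 genes for iBET against DMSO (left) and IC against Ova (right), where circles are the fit of the 4 groups, small squares the fit with the mouse as replicate block, and filled symbols have an adjusted p under 0.05. Spi1 lies farthest from 0 under iBET (-2.57 and -2.77), and Cebpb and Id2 are the filled circles above 0 under IC.

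Spi1 (chromosome 2, 91082390 to 91115756, plus strand) had the largest change of the 9. In DMSO Ova its level was 206, 181, 188, 204 and 187 CPM in mice A to E, and in iBET Ova 35.1, 26.2, 30.5, 33.4 and 36.5 CPM. In IC the DMSO libraries of mice A to E stood at 221, 202, 199, 219 and 239 CPM and the iBET libraries at 37.3, 30.3, 27.9, 31.5 and 31.5 CPM. Every iBET library was thus far below every DMSO library, and the spread between mice was narrow, with a coefficient of variation of 5.75% in DMSO Ova and 12.7% in iBET Ova. Spi1 fell 5.96-fold in Ova (log2 fold change -2.57, SE 0.09, adjusted p = 2.66e-14) and 6.81-fold in IC (-2.77, SE 0.09, adjusted p = 1.1e-14), in 5 of 5 mice each time. Of all genes tested, 3.24% in Ova and 3% in IC passed the threshold with a log2 fold change of -2 or less, and Spi1 was the only member among them. By absolute log2 fold change Spi1 stood within the top 2.05% of genes in Ova and the top 1.61% in IC.

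IC moved Spi1 little. With DMSO it was higher with IC in 5 of 5 mice, by 0.16 on the log2 scale (95% interval -0.01 to 0.34, adjusted p = 0.19), and with the mouse as block this passed (0.16, adjusted p = 0.0333). With iBET the difference was -0.03 (95% interval -0.21 to 0.15). The fall under iBET was present in mice A and B (-2.66 in Ova) and in mice C, D and E (-2.47), whose Spi1 levels in DMSO Ova overlapped.

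Among the C/EBP genes, Cebpd rose under iBET, Cebpb fell and Cebpa did not pass the threshold. Cebpd (chromosome 16, 15887286 to 15891031, plus strand) stood at 27.4, 18.7, 20.4, 18.2 and 18.1 CPM in DMSO Ova in mice A to E and at 65.9, 42.1, 55.6, 50.1 and 55.6 CPM in iBET Ova. In IC it stood at 22.7, 21.9, 21.6, 19.5 and 22.2 CPM with DMSO and at 43.6, 50.6, 45.8, 37.1 and 42.6 CPM with iBET. All iBET libraries were above all DMSO libraries. The rise was 2.62-fold in Ova (log2 fold change 1.39, SE 0.12, adjusted p = 9.07e-09) and 2.04-fold in IC (1.03, SE 0.12, adjusted p = 5.22e-07), in 5 of 5 mice.

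With iBET, Cebpd was lower in IC than in Ova in 4 of 5 mice, by -0.29 on the log2 scale (SE 0.12, adjusted p = 0.113). That difference passed with the mouse as block (-0.29, adjusted p = 0.0253) and when mouse B, the mouse that went the other way, was left out (-0.43, adjusted p = 0.047). It was -0.19 in mice A and B (adjusted p = 0.646) and -0.37 in mice C, D and E (adjusted p = 0.02). With DMSO the value was 0.07 (95% interval -0.18 to 0.32).

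Cebpb (chromosome 2, 167688915 to 167690418, plus strand, a single exon) was the member with the clearest response to IC. It stood at 254, 240, 209, 215 and 149 CPM in DMSO Ova in mice A to E and at 449, 401, 529, 419 and 435 CPM in DMSO IC. With iBET it stood at 159, 106, 171, 203 and 173 CPM in Ova and at 272, 312, 282, 232 and 255 CPM in IC. In both treatments every IC library was above every Ova library. The rise was 2.09-fold with DMSO (log2 fold change 1.07, SE 0.15, adjusted p = 6.29e-05) and 1.67-fold with iBET (0.74, SE 0.15, adjusted p = 0.00286). The rise with iBET was 1.15 in mice A and B and 0.49 in mice C, D and E, and it passed in both sets (adjusted p = 0.0133 and 0.037).

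iBET lowered Cebpb in IC, 1.65-fold (log2 fold change -0.72, SE 0.15, adjusted p = 3.26e-04), in 5 of 5 mice and with no overlap. In Ova the libraries overlapped and the fall was smaller (-0.39, SE 0.15, adjusted p = 0.0289). That call in Ova rested on few libraries: it was lost without mouse A (-0.32, adjusted p = 0.144), without mouse B (-0.20, adjusted p = 0.235) and without mouse C (-0.41, adjusted p = 0.0735), and in mice C, D and E alone the value was -0.02 (adjusted p = 0.92) against -0.90 in mice A and B. The difference between the effects of iBET in IC and in Ova was -0.33 (95% interval -0.77 to 0.10).

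Cebpa (chromosome 7, 35119293 to 35121928, plus strand) overlapped between all groups. Its levels were 77.0 to 112 CPM in DMSO Ova, 81.1 to 115 CPM in DMSO IC, 65.6 to 101 CPM in iBET Ova and 74.6 to 120 CPM in iBET IC. The log2 fold change with iBET was -0.21 in Ova (95% interval -0.51 to 0.10, adjusted p = 0.233) and -0.11 in IC (95% interval -0.41 to 0.19), so a change as large as that of Spi1 or Cebpd lies outside both intervals. With the mouse as block the difference in Ova passed (-0.22, adjusted p = 0.0456), and it was -0.47 in mice A and B and 0.03 in mice C, D and E. Per length, Cebpd amounted to a median of 0.165 of Cebpa in DMSO Ova (range 0.118 to 0.179) and of 0.469 in iBET Ova (range 0.348 to 0.574).

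Genes of the opposite strand overlap exons of Cebpb and Cebpd, and the strand setting of the counting is not given in the sources used here, so reads of the pairs may not be fully told apart. Tmem189 shares 312 exon bases with Cebpb (20.7% of the Cebpb exon length). It rose with IC as well (log2 fold change 0.90 with DMSO, adjusted p = 2.55e-05) but also with iBET (0.50 in Ova and 0.50 in IC), where Cebpb fell. Spidr shares 562 bases with Cebpd (15% of its exon length) and rose less than Cebpd under iBET, by 0.25 in Ova and 0.41 in IC. The part of these neighbours in the Cebpb and Cebpd values was not tested.

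Id2 and Zbtb46, the genes tied to conventional dendritic cells, were both higher with IC in every mouse and differed in their spread. Id2 (chromosome 12, 25093799 to 25097140, minus strand) stood at 206, 211, 231, 316 and 287 CPM in DMSO Ova in mice A to E and at 327, 324, 445, 487 and 388 CPM in DMSO IC. With iBET it stood at 101, 104, 147, 147 and 153 CPM in Ova and at 174, 165, 226, 213 and 191 CPM in IC. The iBET libraries were below the DMSO libraries of the same stimulus without overlap, and the IC libraries were above the Ova libraries of the same treatment. iBET lowered Id2 1.92-fold in Ova (log2 fold change -0.94, SE 0.15, adjusted p = 3.33e-05) and 2.03-fold in IC (-1.02, SE 0.15, adjusted p = 1.21e-05).

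IC raised Id2 1.58-fold with DMSO (0.66, SE 0.15, adjusted p = 0.00518) and 1.49-fold with iBET (0.57, SE 0.15, adjusted p = 0.0196), and Id2 in iBET IC was below its level in DMSO Ova in every mouse. Without mouse C the adjusted p of the rise was 0.0504 with DMSO and 0.0887 with iBET. With iBET it was also above the threshold without mouse A (0.0508) and without mouse B (0.0522), while the size changed little (0.53 and 0.55). With the mouse as block the rise had an adjusted p of 1.78e-06 with DMSO and 1.1e-05 with iBET.

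Zbtb46 (chromosome 2, 181387762 to 181459426, minus strand) varied more between mice than between treatments. It stood at 12.0 and 12.9 CPM in mice A and B in DMSO Ova and at 31.9, 33.7 and 32.2 CPM in mice C, D and E. In DMSO IC the values were 18.5, 19.5, 39.9, 41.8 and 41.8 CPM, in iBET Ova 12.7, 11.9, 24.7, 25.0 and 25.6 CPM, and in iBET IC 17.0, 16.0, 32.3, 32.0 and 37.2 CPM. All 8 libraries of mice A and B (at most 19.5 CPM) were below all 12 of mice C, D and E (at least 24.7 CPM). In the same libraries the summed neutrophil markers were 702 to 914 CPM in mice A and B. In mice C, D and E they were 428 to 575 CPM. That sum was mostly Mmp8, with a mean of 588 CPM in DMSO Ova. S100a8 and S100a9 had means of 12.0 and 11.6 CPM in that group. Differences of the other neutrophil markers between mice were not tested. Within each group the summed dendritic cell markers were lower, and the summed macrophage markers higher, in mice A and B. The part of the makeup of the cultures in the Zbtb46 level was not tested.

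Without the mouse in the fit, Zbtb46 passed in no comparison, and its intervals were wide. With IC the log2 fold change was 0.40 with DMSO (95% interval -0.33 to 1.13) and 0.42 with iBET (95% interval -0.31 to 1.16), higher in 5 of 5 mice in both. With the mouse as block both rises passed (0.43, SE 0.07, adjusted p = 8.21e-05, and 0.43, SE 0.07, adjusted p = 1.63e-04). The difference under iBET also passed with the block, at -0.25 in Ova (adjusted p = 0.00348, lower in 4 of 5 mice) and -0.26 in IC (adjusted p = 0.0026, lower in 5 of 5). In Ova it was -0.02 in mice A and B and -0.33 in mice C, D and E.

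**Figure D3:**
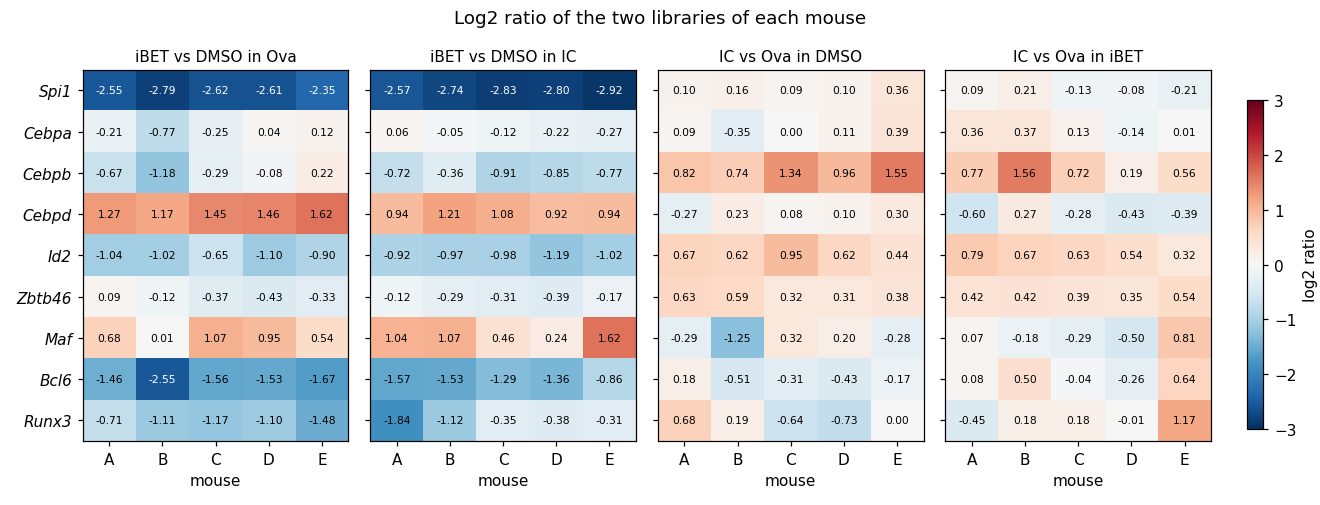
Log2 ratio of both libraries of each mouse for iBET against DMSO and IC against Ova, coloured from blue (lower) to red (higher) with the value in each cell, for mice A to E. The Spi1 ratios under iBET lie between -2.92 and -2.35, and Zbtb46 is above 0 in all 10 ratios of IC to Ova.

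Bcl6, the repressor, fell with iBET in every mouse. Bcl6 (chromosome 16, 23965052 to 23988852, minus strand) stood at 7.32, 11.1, 16.2, 17.0 and 14.9 CPM in DMSO Ova in mice A to E and at 2.67, 1.90, 5.48, 5.90 and 4.69 CPM in iBET Ova. In IC it stood at 8.32, 7.76, 13.0, 12.6 and 13.2 CPM with DMSO and at 2.81, 2.69, 5.33, 4.91 and 7.29 CPM with iBET. In each of the 4 groups mice A and B were below mice C, D and E, and no iBET library reached a DMSO library of the same stimulus. The fall was 3.22-fold in Ova (log2 fold change -1.69, SE 0.32, adjusted p = 1.4e-04) and 2.42-fold in IC (-1.28, SE 0.31, adjusted p = 0.00181). For IC against Ova the values were -0.27 with DMSO (95% interval -0.90 to 0.35) and 0.14 with iBET (95% interval -0.54 to 0.82).

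Runx3 fell with iBET in Ova, and in IC it was lower in every mouse, by a value that differed between the sets of mice. Runx3 (chromosome 4, 135120652 to 135177990, plus strand) stood at 26.7, 35.6, 77.8, 68.4 and 62.0 CPM in DMSO Ova in mice A to E and at 16.3, 16.5, 34.5, 31.9 and 22.3 CPM in iBET Ova. The groups overlapped, since mice A and B with DMSO were at the level of mice C and D with iBET, but each mouse was lower with iBET. The fall was 2.23-fold (log2 fold change -1.16, SE 0.34, adjusted p = 0.00682).

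In IC, Runx3 stood at 42.8, 40.7, 49.8, 41.1 and 62.1 CPM with DMSO and at 12.0, 18.8, 39.0, 31.7 and 50.1 CPM with iBET. It was lower with iBET in 5 of 5 mice, by -0.65 on the log2 scale (SE 0.34, adjusted p = 0.108), and this passed with the mouse as block (-0.78, adjusted p = 0.00154). The value was -1.42 in mice A and B (adjusted p = 5.34e-04) and -0.32 in mice C, D and E (adjusted p = 0.17). The difference between these sets was not tested. With DMSO, Runx3 was higher with IC in mice A and B (log2 ratios 0.68 and 0.19) and lower in mice C and D (-0.64 and -0.73), and the fitted value over all mice was -0.19 (95% interval -0.89 to 0.50).

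Maf, the least abundant of the 9, was higher with iBET. Maf (chromosome 8, 115682942 to 115707794, minus strand) stood at 1.36, 2.91, 1.08, 1.12 and 1.18 CPM in DMSO Ova in mice A to E and at 2.18, 2.93, 2.28, 2.16 and 1.72 CPM in iBET Ova. The value of mouse B in DMSO Ova lay within the iBET range, and the other 4 DMSO libraries were below it. The log2 fold change in Ova was 0.58 (SE 0.25, adjusted p = 0.055), and it passed with the mouse as block (0.60, adjusted p = 0.0149), with DESeq2 (0.58, adjusted p = 0.0493) and without mouse B (0.84, adjusted p = 0.00289). It was 0.30 in mice A and B (adjusted p = 0.527) and 0.90 in mice C, D and E (adjusted p = 0.00942).

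In IC, Maf stood at 1.11, 1.23, 1.35, 1.29 and 0.975 CPM with DMSO and at 2.29, 2.58, 1.86, 1.53 and 3.00 CPM with iBET, without overlap. The rise was 1.89-fold (log2 fold change 0.92, SE 0.25, adjusted p = 0.00433), in 5 of 5 mice. For IC against Ova the values were -0.33 with DMSO (95% interval -0.88 to 0.21) and 0.00 with iBET (95% interval -0.50 to 0.51).

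Among 66 other transcription factors of the same families and lineages, 58 were tested. Under iBET 11 were higher and 32 lower in Ova, where 27.7% of all genes were higher and 28.9% lower, and 12 were higher and 35 lower in IC, beside 27.1% and 29% of all genes. The median absolute log2 fold change of the 58 was 0.68 in Ova and 0.67 in IC, beside 0.36 over all genes tested. In both stimuli 1 of them, Id1, changed more than Spi1, with a rise of 3.00 in Ova and 2.92 in IC.

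Relatives of the members moved in both directions, and the same shares of all genes stand behind the counts by family. Of 10 tested ETS factors, the family of PU.1, 7 fell and 2 rose in Ova, among them Spib (-1.79, adjusted p = 0.0116), the closest relative of Spi1, and Ets1 (2.30, adjusted p = 3.54e-08). Of 4 further C/EBP genes, Cebpg fell (-0.46) and Ddit3, the stress-induced member, rose (1.10), and Cebpe, at lower counts and picked after its values were seen, fell (-2.28). Of 5 ID and E proteins, Id1 and Id3 rose while Id2 fell, and the E protein genes Tcf3, Tcf4 and Tcf12 were all lower in Ova (-0.26, -0.84 and -0.48). In IC, Tcf3 did not pass (-0.05).

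All 3 tested RUNX relatives, Runx1 (-1.35), Runx2 (-0.68) and the partner subunit gene Cbfb (-0.33), fell in Ova, and all 3 fell in IC. Among the MAF and BACH genes, Mafk (1.08, adjusted p = 9.09e-10) and Bach1 (0.14, adjusted p = 0.044) rose in Ova. Of 4 BCL6 partners, Hdac3 rose (0.53) and the corepressor Bcor fell (-0.53), and of 12 BTB zinc finger genes 1 rose (Zbtb5, 0.30) and 5 fell (Zbtb2 the most among them, -1.23). Of 13 other lineage factors, 11 fell in Ova, with Batf3, needed for cross-presenting dendritic cells, at -1.75 (adjusted p = 0.00106), and Nfil3 rose (0.60, adjusted p = 0.00103). The same numbers, 11 lower and 1 higher, were found in IC.

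**Figure D4:**
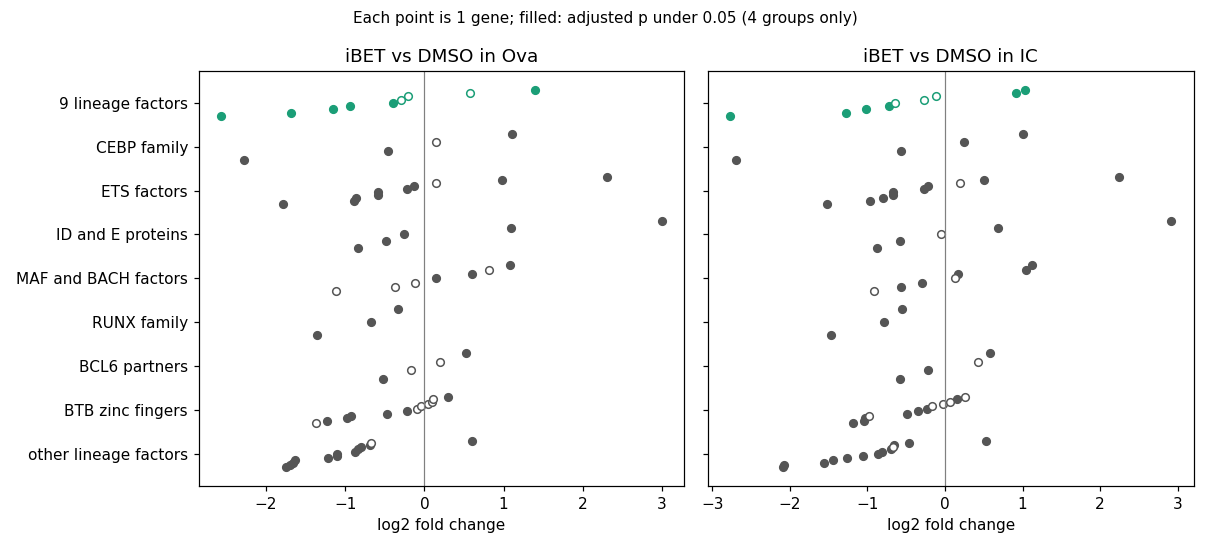
Log2 fold change of each tested gene under iBET in Ova (left) and in IC (right), with the 9 genes in green and other transcription factors by family in grey, filled where the adjusted p was under 0.05. Spi1 is the leftmost point of the top row (-2.57 and -2.77), and the point farthest to the right is Id1 (3.00 and 2.92).

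Textbook targets of the factors were counted by lists chosen with earlier results of these data known. Of 8 PU.1 targets, 4 fell and none rose under iBET in Ova, where 28.9% of all genes fell and 27.7% rose. They were Tlr4 (-2.06, adjusted p = 1.16e-08), Ncf4 (-1.04), Csf1r (-0.83) and Btk (-0.82). The same 4 fell in IC, where 29% of all genes fell. The other 4, Itgam, Csf2ra, Cybb and Lyz2, had values from 0.08 to 0.21 in Ova, and with the mouse as block 2 of the 8 were called higher. The median of the 8 was -0.37 in Ova and -0.31 in IC, beside medians near 0 over all genes tested.

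Of 10 tested C/EBP targets, 6 fell in Ova and 7 in IC, where 28.9% and 29% of all genes fell. In both, 1 rose, Mpo, named after its values were seen. Mpo was near the floor, at 0 to 2 counts in a library of DMSO Ova and 0 to 1 of DMSO IC. It had 4 to 14 counts in iBET Ova and 11 to 22 in iBET IC. Arg1, the arginine-degrading enzyme, fell (-1.72, adjusted p = 2.34e-05). With IC against Ova, 3 of the 10 rose with DMSO, as did 9.59% of all genes, and 2 with iBET, as did 5.19%, and none fell. Of 6 BCL6 targets, Cdkn1a rose in Ova (0.61, adjusted p = 0.0272), while Ccl3 (-1.74) and Prdm1 (-1.62) fell. The other 3, Ccnd2, Cd69 and Cd44, did not pass. Of all genes, 27.7% rose and 28.9% fell in Ova, and these small counts are no result about the list. In IC, Ccl3 and Prdm1 fell and none rose, where 29% of all genes fell and 27.1% rose.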

How the data were processed

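RNA-seq of BMDCs was analysed for 20 libraries, 5 mice in each of 4 groups. The authors trimmed the reads with Trim Galore, aligned them to mm10 with HISAT2 and assigned them to genes with featureCounts, and deposited raw counts per gene and library. A second deposited table holds the same counts divided by size factors and was not used. The annotation and strand setting of the counting are not given in the sources used here.

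After filterByExpr and TMM normalization, edgeR 4.0.16 (R 4.3.3) fitted all libraries at once by group, and contrasts were tested by quasi-likelihood with Benjamini-Hochberg adjustment over 12465 genes. The SE is the log2 fold change divided by the square root of F. Exon lengths and positions came from GENCODE M21 (GRCm38), promoters from RefSeq (GRCm38.p6). Per-mouse log2 ratios were taken from the normalised CPM without a prior count. DESeq2 1.42.0 and sva 3.50.0 served alternatives: the mouse as block, other normalizations, no filter, 3 surrogate variables, each mouse left out, and both sets of mice alone.

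The labels name the mouse of each library, so libraries of a mouse are paired. The deviations of same-mouse libraries from their group means had a mean correlation of 0.52 (lowest 0.31, 30 pairs). No 2 libraries of a group agreed within sampling noise. On simulated counts for iBET against DMSO in Ova, 82% of genes changed by a log2 value of 1 were recovered, with 4.32% of calls false. The simulation changed 200 genes and held no effect of the mouse. In the data 56.6% of genes passed in Ova and libraries of a mouse were correlated, so these rates may not hold for them. All 9 members were named in each comparison. Of each other list, the text names the gene past the threshold with the largest rise and that with the largest fall under iBET in Ova, at a mean of at least 10 CPM in a group, and others only as part of small counts. The members and lists were chosen with earlier results of these data known.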

Additional observations from a re-analysis of the deposited data

Results flagged for a closer look

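Among 36 groups of 5 libraries (9 genes in 4 groups), 2 held a library far from the others by Dixon's ratio, and chance alone marks about 1 in 20. Cebpd in DMSO Ova had its highest level in mouse A, at 27.4 CPM, with a gap to the next library of 0.75 of the range. Maf in DMSO Ova had its highest level in mouse B, at 2.9 CPM, with a gap of 0.849 of the range, on 49 counts. Without mouse A the rise of Cebpd with iBET in Ova still passed, and without mouse B that of Maf passed where it had not before (0.84, adjusted p = 0.00289).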

How the results depend on the processing

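Of the single-gene results of the 9 members over 5 comparisons and their alternatives, 549 kept direction and side of the threshold, 11 were no longer past it, 28 were newly past it and 33 changed sign. None that changed sign had passed the threshold, and the causes were not tested. The calls of Spi1, Cebpd, Bcl6 and Id2 under iBET in both stimuli held in all 14 alternatives of fit, filter, scaling and mice, as did that of Runx3 in Ova. Also held in all 14 were the calls of Cebpb and Maf under iBET in IC. The same was true of the Cebpb rise with IC, both with DMSO and with iBET. The further limit of 1 on the size of the log2 fold change was applied to the counts of members. Id2 under iBET in Ova (-0.94) does not reach it. Nor do Cebpb (-0.72) and Maf (0.92) under iBET in IC, or the Cebpb rise with IC in iBET (0.74). With the mouse as replicate block, IC against Ova gave 4 called members with DMSO and 4 with iBET, in place of 2 each. The share of all genes rose as well, from 20.3% to 38.1% with DMSO and from 11.8% to 28.9% with iBET. The block changed the calls of Cebpa, Zbtb46 and Maf under iBET in Ova, of Zbtb46 and Runx3 under iBET in IC, of Spi1 and Zbtb46 for IC with DMSO and of Zbtb46 and Cebpd for IC with iBET, and no other call. For IC with iBET, 4 were called with surrogate variables and 4 in mice C, D and E. Shares of all genes were not taken in these fits, nor for the counts of the next sentence. None of these counts is read as a result about the members. With a further limit of 1 on the size of the log2 fold change, 1 was called for IC with DMSO and 0 with iBET, and leaving out a mouse gave 1 to 2 for both, with 1 left without mouse C for IC with DMSO and without mouse A or C with iBET. Without the filter on low counts the Cebpb call under iBET in Ova was lost (adjusted p = 0.0527), as it was with only the 10 libraries compared (0.0839), and with library size only the Id2 rise with IC in iBET was (0.0556). Scaling by library size only moved the median of all genes by -0.108 for IC with DMSO and by -0.107 with iBET on the log2 scale.

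Changes of sign were these, as log2 fold changes. In mice A and B alone, Cebpa was 0.0347 under iBET in IC, for IC with DMSO Cebpa was -0.13, Cebpd -0.0698 and Runx3 0.42, for IC with iBET Spi1 was 0.15, Maf -0.0461 and Runx3 -0.0838, and for the interaction Spi1 was 0.0281, Cebpb 0.38, Id2 0.10, Zbtb46 -0.17 and Runx3 -0.50. In mice C, D and E alone, Cebpa was 0.0266 under iBET in Ova, Maf 0.11 for IC with DMSO, Cebpa -0.019 for IC with iBET, and for the interaction Cebpa was -0.21 and Maf -0.0617. With library size only, Cebpa was -0.0599 and Cebpd -0.038 for IC with DMSO, and Maf -0.11 for IC with iBET. With surrogate variables, Cebpa was -0.00026, Cebpd -0.0273 and Runx3 0.12 for IC with DMSO, and Zbtb46 -0.0327 for the interaction. With the replicate block, Maf was -0.0029 for IC with iBET and Zbtb46 -0.0011 for the interaction. Leaving out each mouse, Cebpa ranged from -0.0315 to 0.15 for IC with DMSO, Spi1 from -0.0826 to 0.02, Maf from -0.20 to 0.10 and Bcl6 from -0.0302 to 0.28 for IC with iBET, and for the interaction Cebpa from -0.0578 to 0.21 and Zbtb46 from -0.0171 to 0.057.

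The depth left Maf with 21 to 68 counts in a library and Bcl6 with at least 35, so their values carry the widest counting error of the 9.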
